A study of Mus musculus with 6 samples.

Results

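The ER unfolded protein response and its chaperones are represented here by 10 genes, taken by symbol from 24391 annotated genes: the stress sensors Atf6 and Ern1, the transcription factor Xbp1, the lumenal chaperones Hspa5 and Hsp90b1, the lectin chaperones Calr and Canx, the cochaperones Dnajb9 and Sdf2l1, and the degradation factor Herpud1. They were read in 6 RNA-seq libraries of mRPMaxKO, a mouse line grown from an RPMax-/- lung tumour of mixed 129/SvJ and C57BL/6 background. In this tumour model RP denotes loss of Rb1 and Trp53, the lesions of small cell lung cancer, and Max is the obligate partner through which MYC proteins bind DNA. The MAX restored group (n = 3) re-expressed MAX from a doxycycline-inducible lentivirus, and the control group (n = 3) is given only as control. All libraries share the RPMax-/- genotype, a polyclonal transduced and puromycin-selected population of 1 line below passage 20, and, as the protocol is worded, 4 days of doxycycline. The labels do not say which insert the control vector held or whether control cells also received doxycycline. Nor do they say that replicate libraries stem from independent cultures, so every p-value here reflects library-to-library spread that may be purely technical.

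Proteins that enter the secretory pathway are folded in the endoplasmic reticulum (ER). When unfolded protein builds up, the membrane sensors ATF6, IRE1 (the product of Ern1) and PERK (Eif2ak3) are released from the HSP70 chaperone BiP, the product of Hspa5. ATF6 is cut in the Golgi to free a transcription factor, IRE1 splices Xbp1 mRNA into the form that encodes the active XBP1 factor, and PERK slows translation. ATF6 and XBP1 bind the ER stress response element, a CCAAT box spaced from a CCACG core, in promoters of chaperone and degradation genes. Neuroendocrine cells make large amounts of peptide hormone and granule protein and depend on this folding capacity.

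Promoters of 9 of the 10 members were found in the RefSeq table of GRCm38.p6, as windows reaching 250 bases before and 50 after the annotated start; Atf6 had no entry. The ER stress response element, searched on both strands as CCAAT, any 9 bases and CCACG, lay in 4 of the 9, those of Hspa5, Hsp90b1, Calr and Canx, with 2 copies in Hsp90b1. It lay in 0.119% of all 32851 promoter windows of the table. The related element ERSE-II, ATTGG, any 1 base and CCACG, lay in the window of Herpud1 and in 0.0365% of all windows. No match was found in the windows of Xbp1, Ern1, Dnajb9 and Sdf2l1, which says only that these letters are not there. The XBP1 element TGACGTGG was in 0 of the 9 and in 0.676% of all windows. The E-box CACGTG, the letters bound by MYC-MAX dimers, was in the windows of Calr and Dnajb9 and in 7.15% of all windows; in Dnajb9 it overlaps a CCACG core, a pentamer found in 8 of the 9 and in 32.8% of all. The 250 bases before the start are shown for the 5 genes with an ER stress element and for Dnajb9, whose transcript changed most, 5′ to 3′ along the gene, with the fixed letters of those elements and of E-boxes in capitals.
Hspa5, chr2:34771840-34772089, plus strand: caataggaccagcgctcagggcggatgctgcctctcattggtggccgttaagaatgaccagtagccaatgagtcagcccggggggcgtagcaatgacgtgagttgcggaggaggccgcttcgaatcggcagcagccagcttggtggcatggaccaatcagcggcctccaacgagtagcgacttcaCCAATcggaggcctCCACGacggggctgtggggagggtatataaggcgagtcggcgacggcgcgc
Hsp90b1, chr10:86705445-86705694, minus strand: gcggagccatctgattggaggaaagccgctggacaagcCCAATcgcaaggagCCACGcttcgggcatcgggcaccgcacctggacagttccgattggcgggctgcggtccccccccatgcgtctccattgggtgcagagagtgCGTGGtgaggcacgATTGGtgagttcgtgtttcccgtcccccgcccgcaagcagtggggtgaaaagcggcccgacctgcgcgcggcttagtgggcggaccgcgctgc
Calr, chr8:84846932-84847181, minus strand: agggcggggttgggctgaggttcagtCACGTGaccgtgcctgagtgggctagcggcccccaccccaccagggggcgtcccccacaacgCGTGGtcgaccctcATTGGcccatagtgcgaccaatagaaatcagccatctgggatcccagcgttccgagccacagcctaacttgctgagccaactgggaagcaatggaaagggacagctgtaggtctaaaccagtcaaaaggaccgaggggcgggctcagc
Canx, chr11:50325674-50325923, minus strand: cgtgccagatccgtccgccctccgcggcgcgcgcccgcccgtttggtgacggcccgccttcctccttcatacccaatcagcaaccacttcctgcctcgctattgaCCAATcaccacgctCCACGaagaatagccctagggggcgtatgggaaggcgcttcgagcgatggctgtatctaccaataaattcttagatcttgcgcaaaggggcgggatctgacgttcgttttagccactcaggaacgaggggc
Herpud1, chr8:94386179-94386428, plus strand: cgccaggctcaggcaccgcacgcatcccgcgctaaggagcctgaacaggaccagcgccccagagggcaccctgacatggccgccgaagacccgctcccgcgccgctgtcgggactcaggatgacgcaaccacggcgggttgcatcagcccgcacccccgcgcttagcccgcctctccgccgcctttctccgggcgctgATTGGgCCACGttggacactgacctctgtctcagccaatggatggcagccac
Dnajb9, chr12:44210069-44210318, minus strand: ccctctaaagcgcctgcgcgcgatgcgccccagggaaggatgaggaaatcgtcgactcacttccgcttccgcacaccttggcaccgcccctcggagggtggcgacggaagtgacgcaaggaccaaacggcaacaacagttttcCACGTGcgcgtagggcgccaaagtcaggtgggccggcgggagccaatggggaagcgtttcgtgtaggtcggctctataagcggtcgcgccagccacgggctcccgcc
In Hspa5 the element spans bases -65 to -47 from the start, and in Herpud1 ERSE-II spans -52 to -42. In Canx it spans -145 to -127 and in Calr, on the opposite strand, -162 to -144. A match is a description of the sequence and not a bound site, since binding was not measured.

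Each MAX restored library held 10253303 to 11925909 counts and each control library 10046899 to 10425210. Max itself, which checks the labels, had 1343, 1332 and 1306 CPM (counts scaled to library totals after TMM) in MAX restored libraries 1, 2 and 3, against 62.9, 66.3 and 61.4 CPM in controls 1, 2 and 3. The 9 neuroendocrine markers, among them Chga and Calca, were abundant, with a summed 8863 to 9163 CPM in MAX restored and 9054 to 9290 CPM in control libraries. The 7 fibroblast markers summed to 1.93 to 3.32 CPM in MAX restored and 1.67 to 1.88 CPM in control libraries, the 6 immune markers to 2.59 to 3.42 CPM and 1.49 to 2.95 CPM, and Lum, Cd3e and Cdh5 had no count in any library. Of 5 endothelial markers only Vwf was above 1 CPM on average in either group, and the list summed to 419 to 454 CPM in MAX restored and 528 to 582 CPM in control libraries. The 4 epithelial markers summed to 3260 to 3322 CPM in MAX restored and 2542 to 2691 CPM in control libraries. Krt8 averaged 1040 CPM with MAX restored and 501 CPM in controls, and Krt18 rose less (log2 0.18). Epcam (log2 -0.02) and Cdh1 (0.04) did not pass. The part of these markers in the results was not tested. Control 1 stood apart from the other controls, at a chi-square per degree of freedom of 8.91 and 10.2 where the other 4 replicate pairs lay between 1.24 and 1.50. The ribosomal precursor Rn45s took 0.996% of counts in control 1, against 0.109% to 0.187% in the other 5 libraries. Rn45s was among the genes of the chi-square, so these are not separate signs. The chi-square without Rn45s was not computed. Bulk RNA cannot tell a changed number of cells from a changed RNA content per cell, and no added standard was read, so every change is relative to the rest of the transcriptome.

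Atf6, Ern1, Xbp1, Dnajb9, Sdf2l1 and Hsp90b1 transcripts were lower with MAX restored, by 1.15-fold (Hsp90b1) to 1.52-fold (Dnajb9). Calr was 1.07-fold higher, and Hspa5, Canx and Herpud1 did not pass the test. All 10 members had enough counts to be tested, 6 were lower, 1 was higher, and 3 did not pass (edgeR quasi-likelihood test, adjusted p under 0.05 over 12664 genes). Over all genes tested, 32.3% were lower and 31.2% higher by the same rule, so a lower call is common in these data. In CPM, 7 members lay below all controls in every MAX restored library and 1 above, where 33.8% of all genes tested lay below and 33.2% above, 67.1% in all. The median log2 fold change was -0.25 over the members and -0.004 over all genes tested. Tested against a minimum change of 1.2-fold, 3 members stayed lower, namely Dnajb9 (adjusted p = 1.03e-05 in edgeR's glmTreat), Sdf2l1 (0.00213) and Ern1 (0.0087), where 15.0% of all genes did. The 10 members together summed to 3561 to 3589 CPM in MAX restored libraries and 3833 to 3925 CPM in control libraries. They made up between 0.397% and 0.400% of transcripts (TPM, not scaled by TMM) in MAX restored libraries and between 0.411% and 0.416% in controls.

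**Figure D1:**
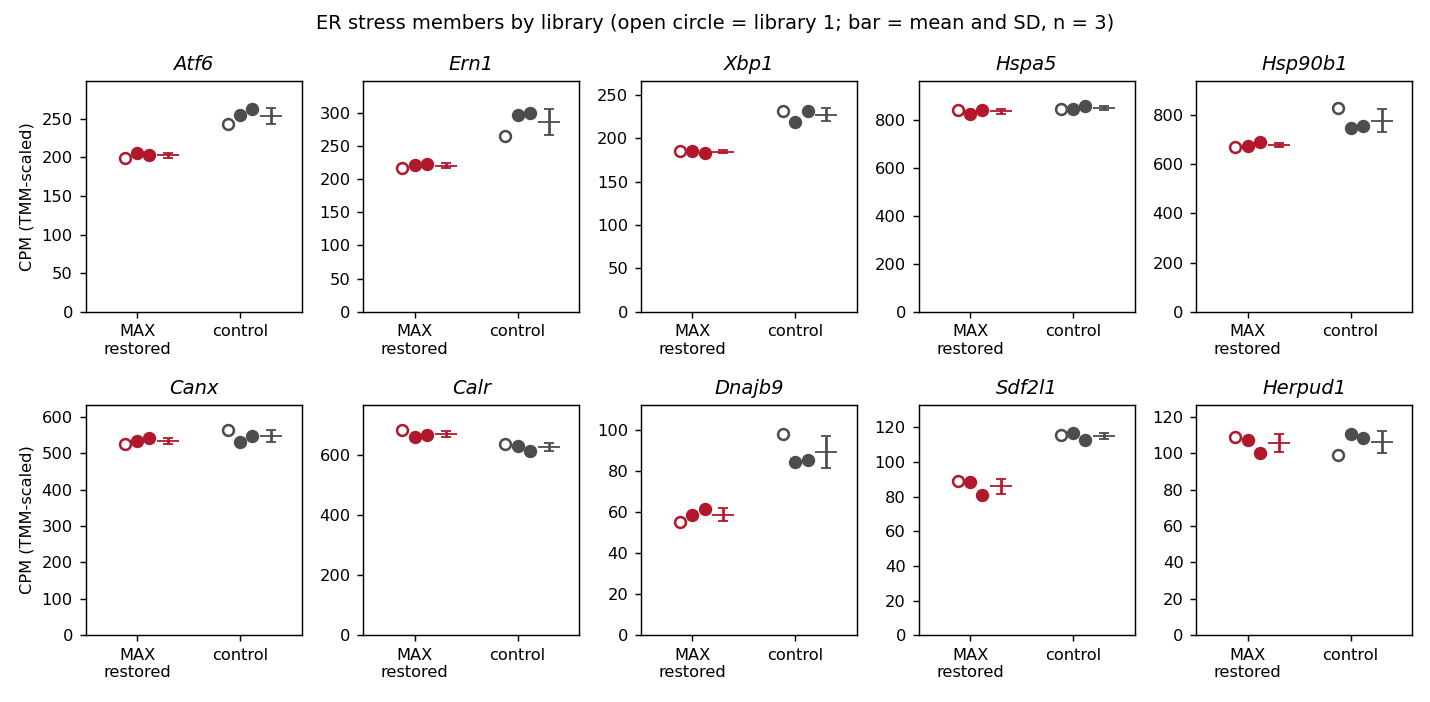
Normalised level (CPM, TMM-scaled, axis from 0) of each of the 10 members in the 3 MAX restored libraries (red, left) and the 3 control libraries (grey, right), with mean and SD beside the points. Dnajb9 lies between 55.4 and 61.7 CPM with MAX restored and between 84.1 and 98.0 CPM in controls, whereas Herpud1 overlaps between the groups.

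Among the sensors, both members were lower. Atf6, the membrane-bound precursor of the ATF6 factor, lies on chromosome 1 from 172634588 to 172797902 on the minus strand (mm9, as for all gene positions that follow). Its level was 199.6, 206 and 203 CPM in MAX restored libraries 1, 2 and 3, against 243, 255 and 263 CPM in controls 1, 2 and 3. Every MAX restored library lay below every control library. The log2 fold change was -0.32 (SE 0.04), a 1.25-fold lower level, with adjusted p = 1.57e-06 in edgeR's quasi-likelihood test. Ern1, which encodes the kinase and ribonuclease IRE1, lies on chromosome 11 from 106258934 to 106349110. It stood at 216, 222 and 223 CPM in MAX restored libraries, against 265, 297 and 299.7 CPM in controls 1, 2 and 3. The groups did not overlap, and control 1 was the lowest control. Ern1 was 1.30-fold lower (log2 -0.38, SE 0.05, adjusted p = 6.01e-07).

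Eif2ak3, the gene of the third sensor PERK and not itself a member, averaged 58.1 ± 3.52 CPM with MAX restored and 52.9 ± 3.34 CPM in controls (SD, n = 3 each), a log2 fold change of 0.13 that did not pass (adjusted p = 0.0634 in edgeR). It passed with upper quartile scaling (0.0298), with a minimum count of 50 (0.0335), without MAX restored library 1 (0.0311) and without control 2 (0.0217). Within each library, and so free of any scaling between libraries, there were 380 ± 18.6 Ern1 counts per 100 Eif2ak3 counts with MAX restored and 543 ± 28.0 in controls (SD, n = 3 each). An exact permutation test of this ratio gave a two-sided p = 0.1, the smallest that 3 against 3 libraries allow, and 0.125 after adjustment over the 5 ratios computed.

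Xbp1 encodes the factor that IRE1 activates by splicing, on chromosome 11 from 5420644 to 5425996. Its level was 186, 186 and 183 CPM in MAX restored libraries 1, 2 and 3, against 231, 218 and 232 CPM in controls 1, 2 and 3. The MAX restored values were tight and all below the lowest control. The log2 fold change was -0.30 (SE 0.04, adjusted p = 4.48e-06 in edgeR). Counts summed over the gene do not separate spliced from unspliced Xbp1 mRNA, so IRE1 activity was not read here.

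The cochaperones changed most. Dnajb9, a J-domain partner of BiP that is also called ERdj4 and a known target of spliced XBP1, lies on chromosome 12 from 45306884 to 45311055. It was at 55.4, 58.8 and 61.7 CPM in MAX restored libraries 1, 2 and 3, against 98.0, 84.1 and 85.4 CPM in controls 1, 2 and 3. The groups were well apart, with control 1 the highest library. Dnajb9 was 1.52-fold lower (log2 -0.61, SE 0.06, adjusted p = 3.88e-08 in edgeR), and 7.72% of all tested genes had a more negative log2 fold change. Without control 1 the log2 fold change was -0.54. Sdf2l1, an ER-resident protein that works with BiP and its J-domain partners, lies on chromosome 16 from 17130231 to 17132476. It was at 88.7, 88.2 and 81.1 CPM with MAX restored, against 115, 117 and 113 CPM in controls. Again no MAX restored library reached the lowest control. Sdf2l1 was 1.34-fold lower (log2 -0.42, SE 0.05, adjusted p = 3.02e-07).

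The lumenal chaperones, far more abundant than the sensors, differed less. Hspa5 encodes BiP, the HSP70 of the ER and the usual reporter of ER stress, on chromosome 2 from 34627610 to 34632049. It was at 840.3, 825 and 842 CPM in MAX restored libraries 1, 2 and 3, against 844, 844 and 858 CPM in controls 1, 2 and 3. The MAX restored values lay just below the controls with no overlap, as did 33.8% of all tested genes. The log2 fold change of -0.02 (SE 0.03, 95% interval -0.09 to 0.04) did not pass (adjusted p = 0.546 in edgeR), and with upper quartile scaling it was 0.00. Hsp90b1 encodes the ER HSP90, GRP94, on chromosome 10 from 86153586 to 86168189. It was at 671, 674 and 688 CPM with MAX restored, against 829, 746 and 753 CPM in controls 1, 2 and 3. All MAX restored libraries were below the controls, and control 1 was the highest. Hsp90b1 was 1.15-fold lower (log2 -0.20, SE 0.04, adjusted p = 0.000165), and without control 1 the log2 fold change was -0.15.

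Dnajb9 and Sdf2l1 were also lower relative to Hspa5 inside each library. There were 7.01 ± 0.378 Dnajb9 counts per 100 Hspa5 counts with MAX restored and 10.5 ± 0.953 in controls, and 10.3 ± 0.578 Sdf2l1 counts with MAX restored and 13.6 ± 0.347 in controls (SD, n = 3 each). In both ratios the groups did not overlap (exact permutation test, two-sided p = 0.1, the smallest possible; 0.125 adjusted over 5 ratios). The same ratio for Herpud1 was 12.6 ± 0.651 with MAX restored and 12.5 ± 0.703 in controls (exact permutation p = 0.8, also 0.8 after adjustment).

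Calr and Canx hold newly made glycoproteins through their sugars while these fold. Calr encodes soluble calreticulin, on chromosome 8 from 87365987 to 87370830. It was at 681, 659.7 and 667 CPM in MAX restored libraries 1, 2 and 3, against 637, 631 and 612 CPM in controls 1, 2 and 3. Calr was thus the 1 member above its controls in every library. The log2 fold change was 0.10 (SE 0.03, 95% interval 0.03 to 0.16, adjusted p = 0.0143 in edgeR). This call was lost without MAX restored library 1 (adjusted p = 0.0687) and without control 3 (adjusted p = 0.0832). Canx encodes calnexin, the membrane-bound lectin, on chromosome 11 from 50107459 to 50139175. It was at 526, 533 and 541 CPM with MAX restored, against 563, 529.8 and 546 CPM in controls 1, 2 and 3. The groups overlapped, and the log2 fold change of -0.03 (SE 0.03, 95% interval -0.10 to 0.03) did not pass (adjusted p = 0.376). The ratio of Calr to Canx counts was 126 ± 3.43 per 100 with MAX restored and 115 ± 3.81 in controls (SD, n = 3 each; exact permutation p = 0.1, adjusted 0.125).

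Herpud1, a membrane protein of the machinery that returns misfolded proteins to the cytosol for degradation, lies on chromosome 8 from 96910400 to 96919258. It was at 109, 107 and 99.96 CPM in MAX restored libraries 1, 2 and 3, against 99.1, 111 and 109 CPM in controls 1, 2 and 3. The ranges were nearly the same in both groups. The log2 fold change of -0.01 (SE 0.05, 95% interval -0.12 to 0.10) did not pass (adjusted p = 0.903 in edgeR) and turned positive under some alternatives, at 0.03 without MAX restored library 3.

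**Figure D2:**
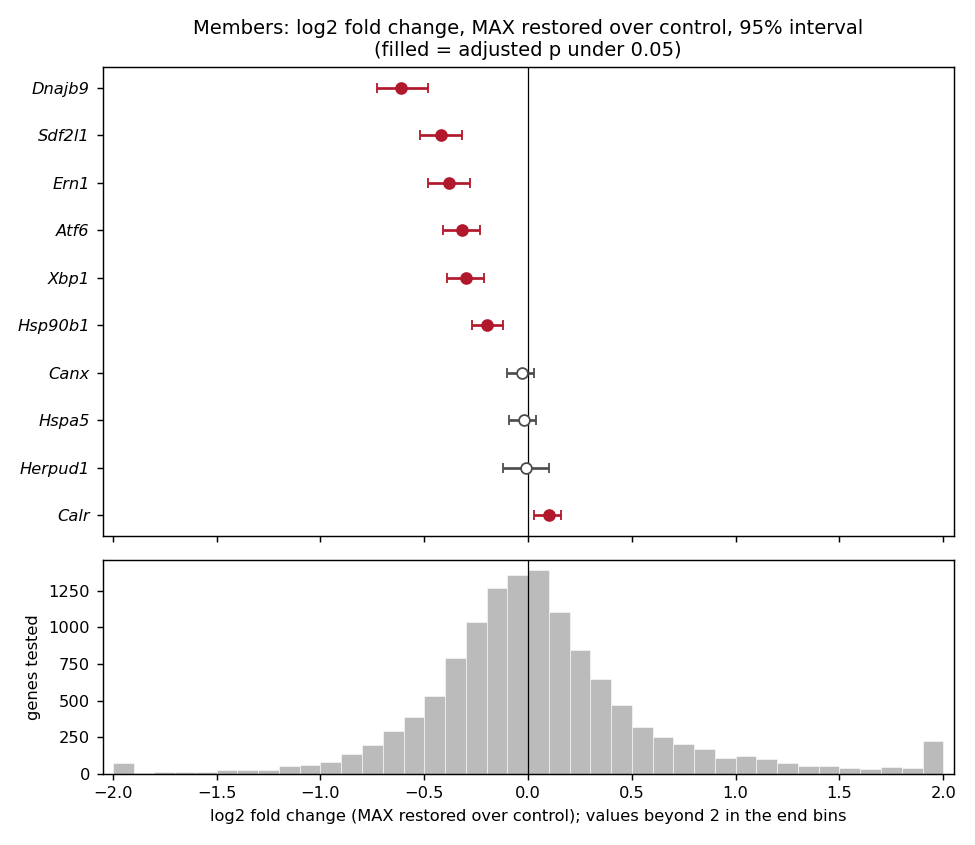
Upper panel, log2 fold change (MAX restored over control) of each member with its 95% interval, filled where adjusted p was under 0.05. The lower panel gives the number of tested genes in each 0.1 step of log2 fold change. Dnajb9 lies at -0.61 and Calr at 0.10, while the intervals of Canx, Hspa5 and Herpud1 include 0.

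The members with an exact ER stress element were those that differed least. The 5 of them, counting Herpud1 with ERSE-II, had log2 fold changes from -0.20 to 0.10. The 4 members whose window held no match, Xbp1, Ern1, Sdf2l1 and Dnajb9, had log2 fold changes from -0.61 to -0.30. This is a description of 9 genes with no test. Outside the members, some genes with an element differed by more, such as Derl3 below. Sizes of change were not compared between all genes with and without an element. Over every promoter searched, 49 genes had an exact match to either element, 27 of them were tested, and 22 of these were not members. Of the 22, 9 (40.9%) were lower, 4 (18.2%) higher and 9 did not pass, with a median log2 fold change of -0.10, where 32.3% of all genes tested were lower and 31.2% higher. Derl3, of the channel for misfolded proteins, carries the element and fell to 25.9 ± 0.861 CPM with MAX restored, against 113 ± 2.85 CPM in controls (SD, n = 3 each; log2 -2.13). Syvn1, the ubiquitin ligase of the same machinery, carries it and rose (log2 0.41), and Dnajc3, an inhibitor of PERK, carries it and did not pass (log2 0.01). Creld2, with the element (log2 -0.10), and Dnajb11, with ERSE-II (-0.05), did not pass either.

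Levels of different genes are compared per length, in TPM (counts per length, scaled to a common total). With MAX restored the order was Calr (1006 ± 13.5 TPM), Hspa5 (933 ± 11.3), Hsp90b1 (717 ± 12.7), Canx (363 ± 6.68), Xbp1 (239.9 ± 1.40), Sdf2l1 (227 ± 10.4), Herpud1 (165 ± 6.89), Ern1 (162 ± 3.27), Dnajb9 (91.7 ± 5.34) and Atf6 (79.4 ± 1.52; SD, n = 3 each). Herpud1 and Ern1 were the only neighbours in this order whose ranges overlapped. In controls Hspa5 (912 ± 20.5 TPM) and Calr (906 ± 10.2 TPM) overlapped at the top, and Sdf2l1 (292 ± 4.81) and Xbp1 (284 ± 9.75) overlapped further down. Ern1, at 203 ± 16.6 TPM, stood above Herpud1, at 159 ± 11.4 TPM, in controls. TPM is not scaled by TMM, so changes between groups are read from CPM.

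**Figure D3:**
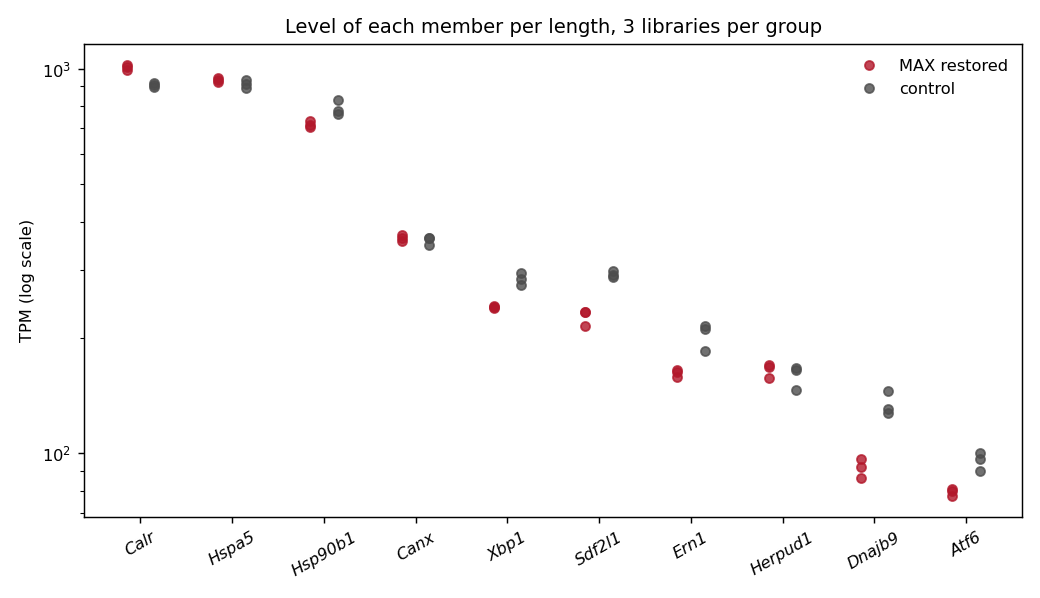
Level per length (TPM, log scale) of each member in the 3 MAX restored (red, left) and 3 control (grey, right) libraries, ordered by mean level. Calr, Hspa5, Hsp90b1 and Canx are the most abundant, and Atf6 is the lowest in both groups, at 79.4 TPM with MAX restored and 95.6 TPM in controls.

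Position in the genome was described from the 25 tested genes on each side of a member in mm9 order. The neighbours of Calr had a median log2 fold change of 0.33, with 36 of 50 called higher and 5 lower. Those of Herpud1, also on chromosome 8, had a median of 0.36, with 32 of 50 higher and 5 lower. Both members thus stood below the median of their surroundings. Around the other 8 members the median lay between -0.12, at Hsp90b1, and 0.13, at Hspa5. Whether the shift of the chromosome 8 region has a part in the values of Calr and Herpud1 was not tested. No exon of a member overlapped an exon of another annotated gene.

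**Figure D4:**
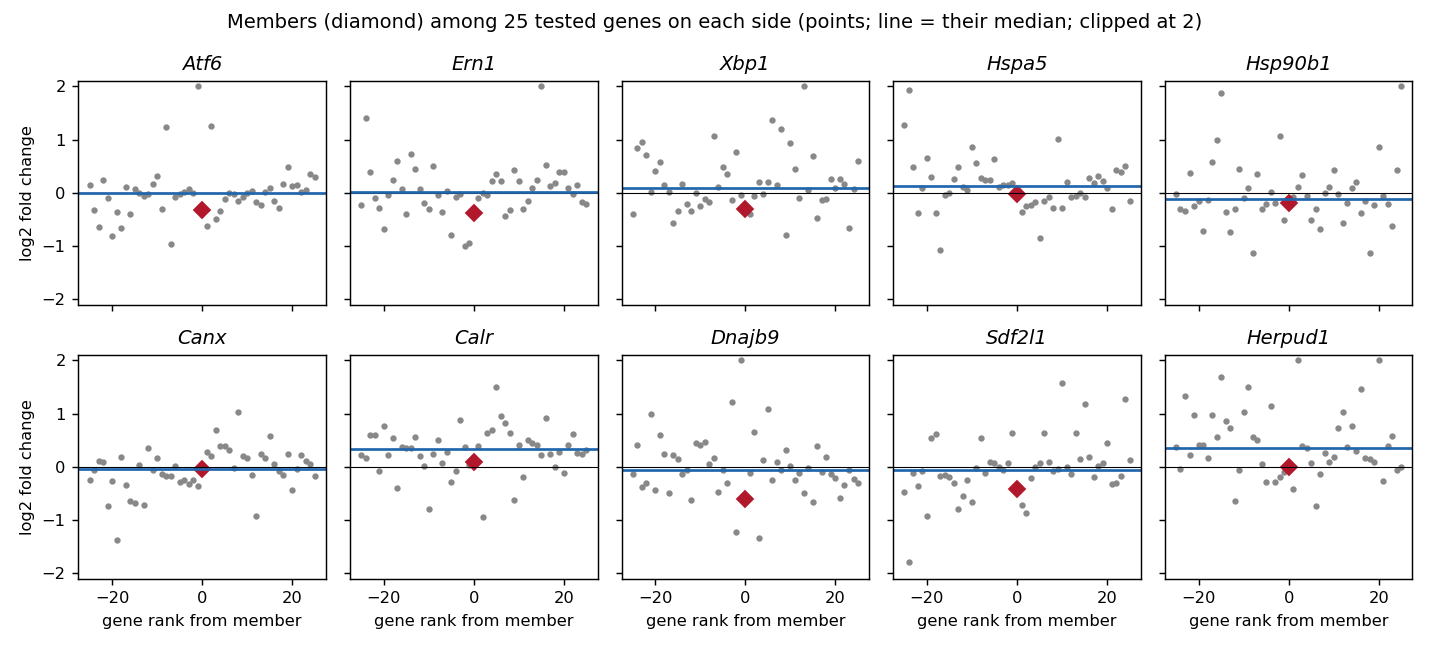
Log2 fold change (clipped at 2 in either direction) of the 25 tested genes on each side of each member against their rank from it (grey points), their median (blue line) and the member (red diamond). The blue line is at 0.33 around Calr and 0.36 around Herpud1, and between -0.12 and 0.13 around the others.

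The wider ER gene set was read from 7 further lists, 134 symbols in all, of which 126 were tested. Of these 66 (52.4%) were lower and 17 (13.5%) higher, against the 32.3% and 31.2% of all genes tested, with a median log2 fold change of -0.15. Without the PERK and ATF4 arm, 57 of 117 (48.7%) were lower and 17 (14.5%) higher, with a median of -0.12. The PERK and ATF4 arm was lower throughout, in 9 of 9 genes with a median of -0.43, 5 of them beyond 1.2-fold (15.0% of all genes tested). Its factor Atf4 was at 339 ± 0.772 CPM with MAX restored and 640 ± 16.9 CPM in controls, and the ATF4 target Trib3 at 84.1 ± 1.51 CPM and 211 ± 6.53 CPM (SD, n = 3 each). The fall of this arm was already known from these data when the list was written.

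Among partners of the sensors 5 of 14 tested genes (35.7%) were higher and 5 (35.7%) lower. This was near the 31.2% and 32.3% of all genes tested, so the list as a whole gave no result, and single genes are described. Creb3l1, a relative of ATF6 that is cut by the same proteases, rose to 17.5 ± 1.02 CPM with MAX restored, against 4.93 ± 0.282 CPM in controls (log2 1.83, SE 0.12, adjusted p = 8.20e-11 in edgeR). Creb3l2, of the same family, also rose (log2 0.43). Of the proteases that release ATF6 in the Golgi, Mbtps2 fell to 37.8 ± 2.13 CPM, against 63.5 ± 2.03 CPM in controls (log2 -0.75), while Mbtps1 rose slightly (log2 0.11), a call lost without MAX restored library 2 (adjusted p = 0.0517) and beyond 1.2-fold (1). Nfya and Nfyb, subunits of the factor that binds the CCAAT box, fell (log2 -0.36 and -0.30), and the third subunit gene, Nfyc, rose (0.43). Without MAX restored library 3 the number lower in this list was 3, since Atf6b and Yy1 no longer passed.

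Translocation into the ER was the list with the broadest fall in number, 22 of 29 tested genes lower (7 beyond 1.2-fold) and 1 higher, with a median log2 fold change of -0.19. The shares were 75.9% lower and 3.45% higher, against 32.3% and 31.2% of all genes tested, of which 15.0% were lower beyond 1.2-fold. Ssr4, of the translocon-associated complex, was at 63.9 ± 2.06 CPM with MAX restored and 96.1 ± 6.29 CPM in controls (log2 -0.59), and the channel gene Sec61a1 was lower by less (log2 -0.22). Ddost, an oligosaccharyltransferase subunit, was the gene that rose, to 650.2 ± 5.82 CPM with MAX restored, against 461 ± 13.8 CPM in controls (log2 0.50, adjusted p = 1.13e-10 in edgeR). Ssr1 (log2 0.09, adjusted p = 0.0851) was a second without control 1 (0.000131), with upper quartile scaling (0.0266) and with a minimum count of 50 (0.039). The number lower in this list was 17 without MAX restored library 3, 18 without MAX restored library 2 and 19 with DESeq2. It was 23 with voom and with no filter beyond 1 count.

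Disulphide and prolyl isomerases and oxidases were lower in 11 of 21 (52.4%) and higher in 3 (14.3%), with median log2 -0.19. Over all genes tested, 32.3% were lower and 31.2% higher. The oxidase genes Ero1l and Ero1lb, which feed disulphide bonds into folding proteins, fell to 72.7 ± 3.33 and 53.9 ± 0.888 CPM with MAX restored, against 135 ± 16.3 and 96.5 ± 5.22 CPM in controls (log2 -0.90 and -0.84). Txndc5, a disulphide isomerase, was at 263 ± 2.47 CPM with MAX restored and 458 ± 7.75 CPM in controls (log2 -0.80, adjusted p = 1.50e-13 in edgeR). The abundant isomerases P4hb (log2 -0.01) and Pdia3 (-0.02) did not pass. Ero1l was highest in control 1, at 154 CPM, against 124 and 127 CPM in controls 2 and 3. Without control 1 the number higher in this list was 6, the added genes being Tmx1, Tmx3 and Sep15.

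Genes of ER-associated degradation were lower in 10 of 29 and higher in 3, with a median log2 fold change of -0.06. The lower share, 34.5%, was near the 32.3% of all genes tested, so the list as a whole gave no result, and single genes are described. Besides Derl3, its relatives Derl1 (log2 -0.47) and Derl2 (-0.45) and the mannosidase-like genes Edem1 (-0.41) and Edem2 (-0.62) fell. Among those that rose were Syvn1 (0.41), the ubiquitin ligase, and Sel1l (0.14), its partner. Other ER chaperones were lower in 8 of 20 (40.0%) and higher in 3 (15.0%), with a median of -0.06. All genes tested were lower in 32.3% and higher in 31.2%. Cnpy3, a cochaperone of GRP94, fell to 89.8 ± 5.68 CPM with MAX restored, against 142 ± 3.00 CPM in controls (log2 -0.66), and Sil1, the nucleotide exchange factor of BiP, fell too (log2 -0.56). Uggt1, which tags unfolded glycoproteins for another round with calnexin and calreticulin, rose (log2 0.28).

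Of 6 transcripts reported as cut by IRE1 in mouse cells, 4 were tested. Col6a1 (3.98 ± 0.549 CPM with MAX restored, 0.910 ± 0.383 CPM in controls) and Pdgfrb (1.86 ± 0.639 and 0.525 ± 0.404 CPM) rose, both at few counts. Pdgfrb is also the 1 fibroblast marker with enough counts to test, and a part of other cells in these values was not tested. Hgsnat fell (log2 -0.15) and Bloc1s1, the best-known of them, had a log2 fold change of -0.21 that did not pass (adjusted p = 0.0746 in edgeR). The Hgsnat call was lost without MAX restored library 1 (adjusted p = 0.118), without control 3 (0.0804), with DESeq2 (0.0757) and beyond 1.2-fold (1), and Bloc1s1 passed without MAX restored library 1 (0.0471) and without control 1 (0.0372). Scara3 and Sparc had too few counts to test.

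**Figure D5:**
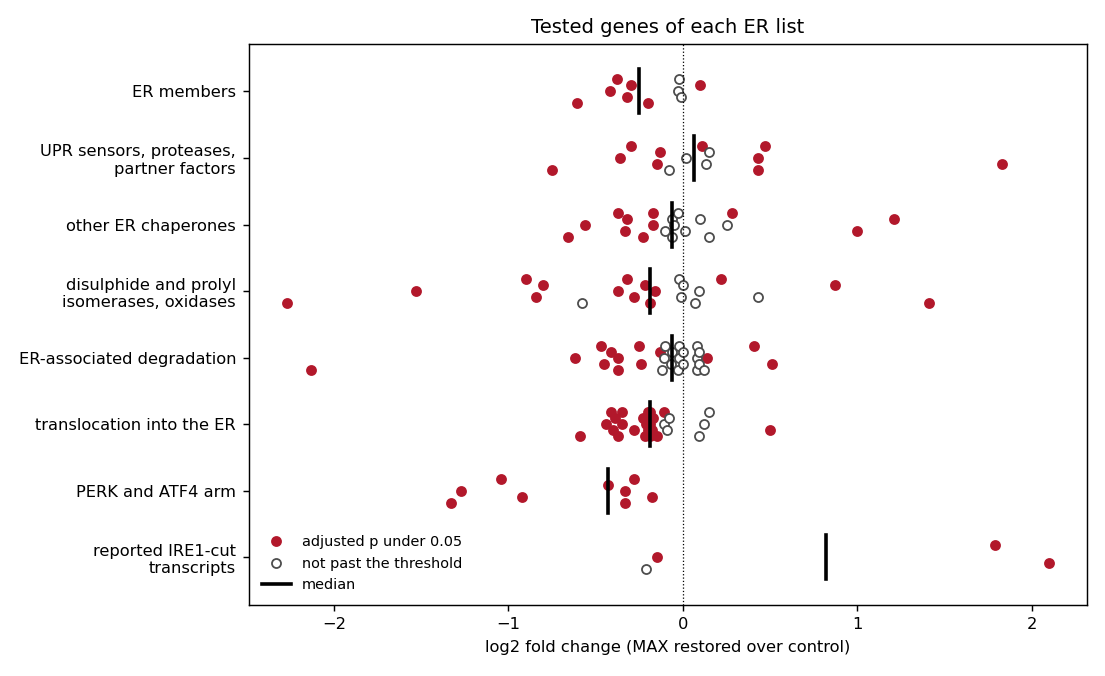
Log2 fold change (MAX restored over control) of every tested gene in the 10-member set and the 7 further ER lists, with filled points where adjusted p was under 0.05, and the median of each list as a bar. The PERK and ATF4 arm lies wholly below 0, translocation genes cluster at a median of -0.19, and the lowest point of the degradation list is Derl3 at -2.13.

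The 5 non-member genes whose log2 CPM followed Hspa5 most closely over the 6 libraries were Eefsec (Pearson r = 0.977), Slc10a3 (0.972), Uspl1 (0.970), Flrt1 (0.965) and Hnrnpf (0.965). With 6 points and 12664 genes such values are a description, and the small range of Hspa5 makes them depend on slight shifts of single libraries.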

How the data were processed

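Per the labels' protocols, libraries were made from 500 ng of TRIzol-extracted RNA with an Ultra RNA kit whose reads carry no strand. Base calling with bcl2fastq 1.8.4, alignment with STAR 2.5.2a to mm9 and counting with featureCounts (Subread 1.6.0) are listed in the submitters' processing notes. Each deposited file holds raw counts per gene symbol; its header records unstranded counting by the authors over UCSC mm9 exons, so a gene and an antisense partner cannot be told apart.

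Here filterByExpr (minimum count 10) kept 12664 of 24391 genes. TMM scaling and edgeR 4.0.16's quasi-likelihood test (R 4.3.3, group only, two-sided, Benjamini-Hochberg over all genes tested) gave the main results. The SE is the log2 fold change over the square root of F, and 95% intervals follow from it. CPM uses TMM-scaled totals, and TPM the annotated exonic lengths. The biological coefficient of variation was 4.28%. The fit was tested on simulated data in which few genes changed and no library stood apart. It was not tested for data in which most genes change or 1 library deviates, as here. The members, lists and tests were chosen with earlier results of these data known. Each list has at least its 2 genes with the smallest p named, plus others past the threshold, except 1 degradation gene that is not reported here; list genes given as not passing, and those picked out for carrying a promoter element, were named with their values in view. Alternatives were DESeq2 1.42.0, limma 3.58.1 (voom), other scalings and filters, glmTreat, a replicate block, and omission of single libraries; all 6 libraries enter every main value. Promoter sequences are RefSeq's (GRCm38.p6), and gene coordinates are the files' (mm9).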

Additional observations from a re-analysis of the deposited data

How the results depend on the processing

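The 6 lower calls among the members held under 14 of 15 alternatives: every scaling, filter and tool tried other than the 1.2-fold test, the replicate block, and each omission of a library. The 15th, glmTreat beyond 1.2-fold, kept 3 lower and 0 higher members (2111 higher and 1896 lower over all genes). There Xbp1 (adjusted p = 0.192), Atf6 (0.0784), Hsp90b1 (1) and Calr (1) no longer passed. Leaving out single libraries gave 0 to 1 higher members, and 0 without MAX restored library 1 or control 3, where Calr had log2 fold changes of 0.09 and 0.08. The members' median log2 fold change lay between -0.27 and -0.22 over those omissions, at -0.22 with upper quartile scaling and at -0.23 with a minimum count of 50. Values near 0 changed sign, Hspa5 to 0.00 and Herpud1 to 0.02 with upper quartile scaling, and Herpud1 to 0.01 with a minimum count of 50, 0.03 without MAX restored library 3, 0.02 without control 2 and 0.01 without control 3 (range -0.06 to 0.03 over single omissions); none passed, and the cause was not tested. Upper quartile scaling moved the median of all genes to 0.022 and gave 4244 higher and 3799 lower. Same-numbered libraries did not deviate together (correlations 0.004, 0.035 and -0.024). So few libraries cannot show whether samples were handled as pairs, and the labels give no pairing. With the replicate block 6 members were lower, 1 was higher, 3941 genes were higher and 4093 lower in all. Eif2ak3 (adjusted p = 0.0435) and Hspa13 (0.0465) of the further lists passed in that edgeR fit. In the further ER lists, a minimum count of 50 or upper quartile scaling each gave 6 higher degradation genes in place of 3. Depth was not limiting for the members, which had at least 631 counts in every library.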
